A study of Homo sapiens with 6 samples.

Results

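Aldehyde dehydrogenases oxidize reactive aldehydes to carboxylic acids, using NAD+ or NADP+ as the electron acceptor. The 10 genes described here, ALDH1A1, ALDH1A2, ALDH1A3, ALDH1B1, ALDH2, ALDH3A1, ALDH3A2, ALDH3B1, ALDH7A1 and ALDH9A1, were found by symbol among the 60498 genes of the count table. They belong to a family of 19 human genes, and the other 9 were set beside them. The group was selected on measured values, since the cGAMP ratios of these libraries, and above all the opposite ratios of ALDH1A1 between lines, were known when it was chosen. The cGAMP ratios of the 10 members are therefore given as a description without a test.

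RNA-seq was performed on 6 libraries of SKOV3, an established human ovarian cancer cell line, with 1 library for each of 3 lines and 2 treatments. The parent line carries a WT and a HAQ allele of STING1 (WT/HAQ), HAQ being a common haplotype with 3 amino acid changes. WT/- cells kept the WT allele alone and HAQ/- cells the HAQ allele alone, after CRISPR deletion with a pair of guides, puromycin selection and limiting dilution, so each edited line is 1 clone. Treated cells received 2'3'-cGAMP, the cyclic dinucleotide that activates STING, at 10 μg/mL for 30 min in a digitonin permeabilization buffer and rested for 4 h in fresh medium. How the control cells were handled is not given in the sources used here.

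The libraries held between 12444822 and 17608467 counts, and the cGAMP libraries of the edited lines were the shallowest. STING1, the edited gene, had 669.1, 352.8 and 212.9 normalized counts in the WT/HAQ, WT/- and HAQ/- controls. ISG15, an interferon-stimulated gene, had 139.7, 350.0 and 138.7 normalized counts in the same controls and 18880, 16950 and 4940 with cGAMP. KRT8 (9067 to 14630 normalized counts), EPCAM (420.5 to 771.8) and ERBB2 (46460 to 69250) were present in all 6 libraries. PTPRC, a leukocyte marker, had 0 to 3 counts, whereas COL1A1, a fibroblast marker also used by mesenchymal-like cancer cells, had 792 to 1121 normalized counts. In bulk RNA, fewer cells that express a gene cannot be told apart from less RNA per cell.

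ALDH1A1, ALDH1A2 and ALDH1A3 are the cytosolic retinaldehyde dehydrogenases, which make retinoic acid, the ligand of the retinoic acid receptors. ALDH1A1 activity is widely used as a marker of stem-like cells in ovarian and other carcinomas. ALDH1B1 and ALDH2 are mitochondrial enzymes of acetaldehyde oxidation, ALDH3A1 and ALDH3A2 act on aromatic and long-chain fatty aldehydes, ALDH3B1 on lipid-derived aldehydes, ALDH7A1 in lysine breakdown and ALDH9A1 on aminoaldehydes.

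The promoters shown are of the 2 members with the largest cGAMP changes among those averaging at least 10 counts per library. They are shown because these genes moved in different directions in WT/HAQ and WT/- cells. In HAQ/- both were lower with cGAMP. Each is the stretch of 250 bases before the RefSeq transcription start on GRCh38.p14, written in the direction of transcription, and capitals mark matches to the motifs named afterwards. The ALDH1A1 window is on the minus strand at chr9:72953054-72953303, with 38.4% GC, and the ALDH1B1 window is on the plus strand at chr9:38392452-38392701, with 70.4% GC.
ALDH1A1: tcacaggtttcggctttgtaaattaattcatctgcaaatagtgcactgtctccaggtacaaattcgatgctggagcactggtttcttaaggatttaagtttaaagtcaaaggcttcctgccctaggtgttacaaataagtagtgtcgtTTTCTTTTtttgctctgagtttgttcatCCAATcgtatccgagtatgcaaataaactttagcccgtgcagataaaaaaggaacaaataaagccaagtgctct
ALDH1B1: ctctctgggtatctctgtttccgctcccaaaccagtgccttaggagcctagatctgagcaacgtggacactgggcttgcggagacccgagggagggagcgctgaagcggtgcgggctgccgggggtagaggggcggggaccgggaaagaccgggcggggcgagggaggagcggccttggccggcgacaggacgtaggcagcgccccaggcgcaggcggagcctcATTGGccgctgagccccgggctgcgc

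Both strands were searched for 7 motifs, and the share of all 34788 RefSeq promoters of this length that hold a match is given for each. These were the core of the interferon regulatory factor element (AANNGAAA, 20.34%), the antioxidant response element (TGACNNNGC, 10.91%), the aryl hydrocarbon receptor element (GCGTG, 32.16%), the AP-1 site (TGANTCA, 6.59%), the CCAAT box (CCAAT, 32.02%), the TATA box (TATAAA, 10.77%) and the nuclear receptor element (AGGTCA, 12.02%). The ALDH1A1 window held the interferon regulatory factor core on the reverse strand, 102 bases before the start, and a CCAAT box at 74 bases. The ALDH1B1 window held a CCAAT box on the reverse strand at 26 bases and no match to the other motifs. Of the members, 8 had a promoter in the RefSeq table, with 11 windows in all, and ALDH2 and ALDH3A1 had none. ALDH3A2 was the other member with the interferon regulatory factor core, at 221 and 183 bases before its first start. A match is a description of the letters and not a binding site.

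Of the 10 members, 9 averaged at least 10 counts per library and were analysed among 15126 genes. ALDH1A2 (minus strand of chromosome 15 of GRCh38, 57953424 to 58497866) did not, with 1, 5, 12, 4, 0 and 0 counts in the WT/HAQ control and cGAMP, WT/- control and cGAMP and HAQ/- control and cGAMP libraries. Its highest count was in the WT/- control, and it was not detectable in HAQ/- at this depth, where a count of 0 allows up to 3 counts per library. The intervals of its log2 cGAMP ratio in WT/HAQ (-0.26 to 5.12) and WT/- (-2.62 to 0.49) both included 0. Per kilobase of the main transcript, the order in the WT/HAQ control was ALDH1B1 (679.6 normalized counts per kb), ALDH7A1 (424.2), ALDH9A1 (293.8), ALDH3B1 (250.3), ALDH3A2 (233.4), ALDH1A3 (46.63), ALDH3A1 (40.45), ALDH2 (15.25) and ALDH1A1 (6.326). This order held for that library, since ALDH1B1 ranged from 177.7 to 679.6 per kb over the 6 libraries, across the ranges of ALDH7A1 and ALDH9A1, and ALDH1A1 from 0.5223 to 287.4. Over the same libraries, the ranges of ALDH9A1 (244.8 to 335.8 per kb) and ALDH3B1 (140.6 to 250.3) overlapped, and so did those of ALDH1A3 (17.99 to 46.63) and ALDH3A1 (21.19 to 43.49). The ranges of ALDH7A1 (370.2 to 527.2) and ALDH9A1 did not overlap. The transcript lengths used here ran from 1.64 kb for ALDH3A1 to 9.56 kb for ALDH2. Before division by length, the WT/HAQ control had 145.8 normalized counts of ALDH2, beside 161.8 of ALDH1A3 and 66.29 of ALDH3A1.

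**Figure D1:**
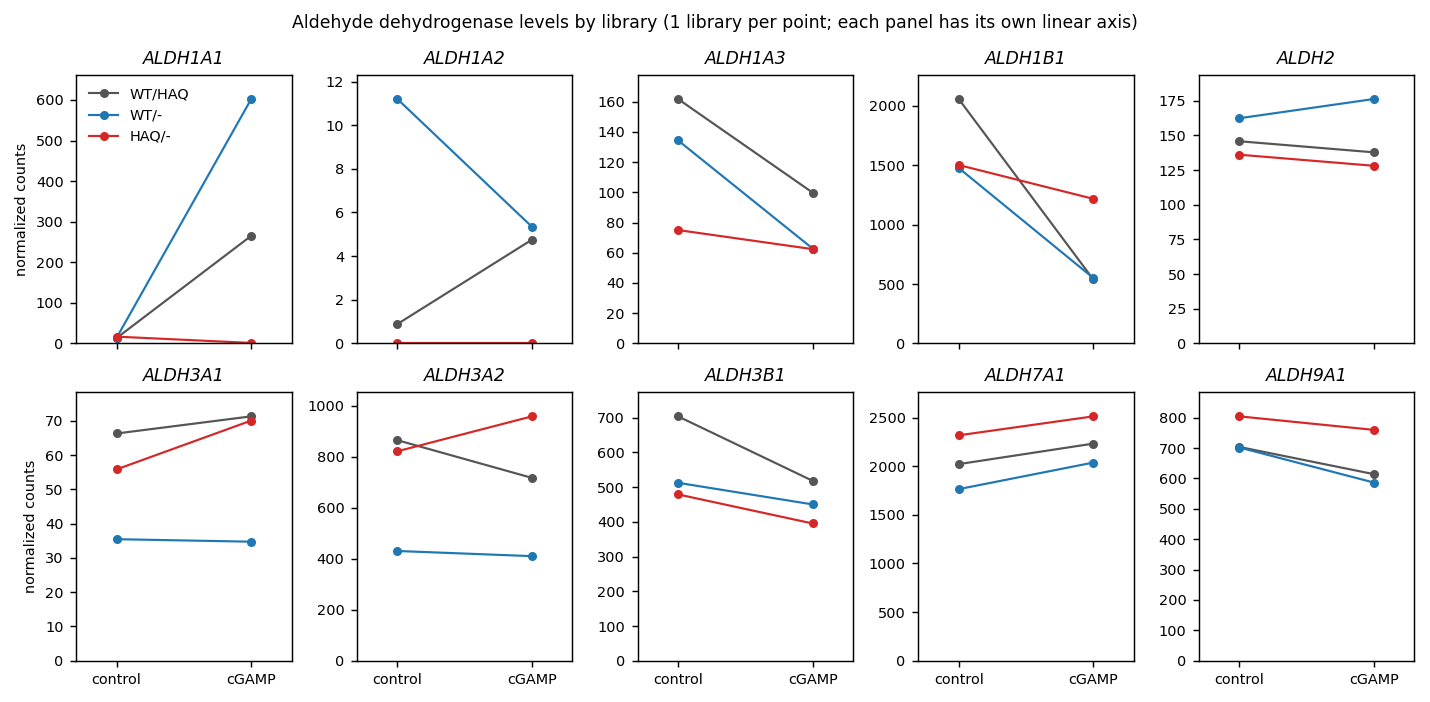
Normalized counts (y axis, linear from 0, a separate scale for each gene) of the 10 aldehyde dehydrogenases in the control and cGAMP libraries (x axis), with 1 library per point and lines joining the libraries of WT/HAQ (grey), WT/- (blue) and HAQ/- (red) cells. ALDH1A1 was between 13.26 and 16.58 in the controls and stood at 265.2, 602.4 and 1.095 with cGAMP, while ALDH1B1 was lower with cGAMP in each line.

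ALDH1A1 (minus strand of chromosome 9, 72900671 to 73080442, with 13 exons in its main transcript) was close to the floor in all 3 control libraries, with 15, 15 and 19 counts in WT/HAQ, WT/- and HAQ/-. With cGAMP it had 279 counts in WT/HAQ and 451 in WT/-, but 1 count in HAQ/-. In normalized counts the WT/HAQ pair went from 13.26 to 265.2, the WT/- pair from 14.0 to 602.4 and the HAQ/- pair from 16.58 to 1.095. The controls were alike, and the lines stood apart in the cGAMP libraries. The cGAMP over control ratio was 20.0 in WT/HAQ (log2 4.32, 95% interval 3.58 to 5.06) and 43.0 in WT/- (log2 5.43, 4.69 to 6.16). In HAQ/- the log2 ratio was -3.92 (-6.47 to -1.37), which rests on a single count in the treated library. With counts under 3 set to 3, the log2 fold there was -2.34, and with counts under 10 set to 10 it was -0.60. These intervals are Wilson intervals on the counts and cover counting error only, since no line and treatment has a second library.

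ALDH1A1 was at least 1.5-fold higher in WT/HAQ, where 12.8% of all analysed genes were, and in WT/-, where 11.9% were. It was at least 1.5-fold lower in HAQ/-, where 5.76% of genes were. Of the 15126 genes, 59 (0.390%) were raised in both WT/HAQ and WT/- and lowered in HAQ/- by these limits, and nothing is read from this share because the pattern was used to choose the group. The difference between lines in the cGAMP ratio was not tested, since that contrast chose the gene and each edited line is 1 clone.

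ALDH1B1 (plus strand of chromosome 9, 38392702 to 38398661) is unusual in the family for having its coding sequence in 1 exon. It had 2058 normalized counts in the WT/HAQ control and 538.0 with cGAMP, 1477 and 550.3 in WT/-, and 1502 and 1217 in HAQ/-. The cGAMP library was lower than the control in each line, and the treated WT/HAQ and WT/- libraries reached nearly the same level. The log2 ratio was -1.94 in the WT/HAQ line (-2.07 to -1.80), -1.42 in the WT/- line (-1.58 to -1.27) and -0.30 in the HAQ/- line (-0.41 to -0.19). These correspond to levels 3.82-fold, 2.68-fold and 1.23-fold lower. At 412 counts or more per library, the counting error of this gene is far smaller than that of ALDH1A1.

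ALDH1A3 (plus strand of chromosome 15, 100877714 to 100916626), the retinaldehyde dehydrogenase with the highest control level here, also was lower with cGAMP. It had 161.8 normalized counts in the WT/HAQ control and 99.8 with cGAMP, 134.4 and 62.77 in WT/-, and 75.03 and 62.39 in HAQ/-. The HAQ/- control was already below the WT/HAQ cGAMP library. The log2 ratio was -0.70 in WT/HAQ (-1.04 to -0.35) and -1.10 in WT/- (-1.57 to -0.63), whereas the interval in HAQ/- (-0.27, -0.75 to 0.21) included 0. The exons of ALDH1A3 share 1715 bp with the antisense gene ALDH1A3-AS1, and whether the counting used strand is not stated, so the counts may hold reads of both.

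Of the 9 analysed members, ALDH1A1 was therefore the 1 past 1.5-fold higher in WT/HAQ and WT/- cells, and ALDH1A3 and ALDH1B1 were the 2 past 1.5-fold lower there, against 12.3% of all genes lower in WT/HAQ and 8.77% in WT/-. In HAQ/-, 0 analysed members were past 1.5-fold higher, against 6.75% of genes, and ALDH1A1 was the 1 lower. The median log2 ratio of the 9 analysed members was -0.20 in the WT/HAQ line, -0.07 in the WT/- line and -0.09 in the HAQ/- line, beside all-gene medians of -0.012, -0.0001 and -0.0112. The retinaldehyde dehydrogenases thus went both ways within the same libraries, with ALDH1A1 higher and ALDH1A3 lower in both lines with a WT allele.

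**Figure D2:**
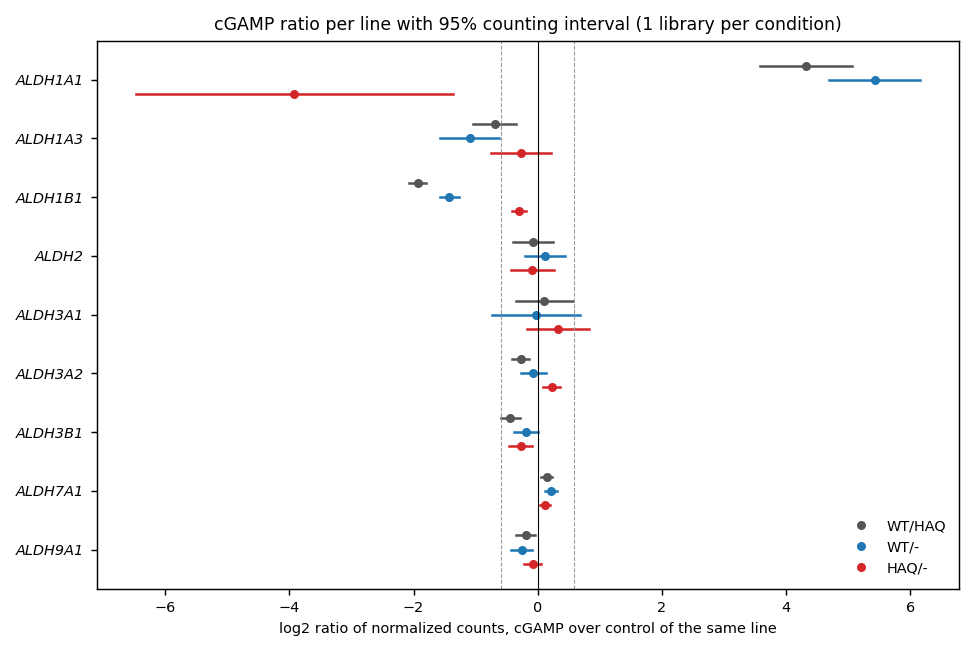
log2 ratio of normalized counts, cGAMP over control of the same line (x axis), for the 9 analysed aldehyde dehydrogenases (y axis) in WT/HAQ (grey), WT/- (blue) and HAQ/- (red); bars are 95% counting intervals and dashed lines mark 1.5-fold. ALDH1A1 lies at 4.32 in WT/HAQ, 5.43 for WT/- and -3.92 for HAQ/-, ALDH1B1 is below 0 in each line, and the points of the last 6 genes lie inside the dashed lines.

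The other 6 analysed members had cGAMP ratios under 1.5-fold in each line. ALDH7A1 (minus strand of chromosome 5, 126531200 to 126595362), also called antiquitin, had 2021 normalized counts in the WT/HAQ control and 2232 with cGAMP, 1764 and 2037 in WT/-, and 2317 and 2512 in HAQ/-. Each treated library was slightly above its control, at log2 ratios of 0.14 (0.06 to 0.23), 0.21 (0.11 to 0.30) and 0.12 (0.04 to 0.20). Its pseudogene ALDH7A1P1 is counted separately at 8 to 16 counts, far below the gene itself.

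ALDH3B1 (plus strand of chromosome 11, 68008578 to 68029282) had 703.6 normalized counts in the WT/HAQ control and 518.0 with cGAMP, 512.3 and 450.1 in WT/-, and 478.9 and 395.2 in HAQ/-. The log2 ratio was -0.44 (-0.60 to -0.28) in WT/HAQ and -0.28 (-0.47 to -0.09) in HAQ/-, and the interval in WT/- (-0.19, -0.38 to 0.01) included 0. ALDH9A1 (minus strand of chromosome 1, 165662216 to 165698562) had 703.6 and 614.0 in WT/HAQ, 701.8 and 586.3 in WT/-, and 804.3 and 759.7 in HAQ/-. Its treated libraries were below their controls by log2 ratios of -0.20 (-0.35 to -0.05), -0.26 (-0.43 to -0.09) and -0.08 (-0.22 to 0.06), and the last interval included 0.

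ALDH2 (plus strand of chromosome 12, 111766887 to 111817532) is the main acetaldehyde dehydrogenase of liver. It had 145.8 normalized counts in the WT/HAQ control and 137.8 with cGAMP, 162.4 and 176.3 in WT/-, and 136.1 and 128.1 in HAQ/-. The log2 ratios of -0.08, 0.12 and -0.09 all had intervals that included 0, and the highest library was 1.377 times the lowest. The exons of ALDH2 share 680 bp with another annotated gene on the same strand, ENSG00000257767. The values of ALDH2 were not whole numbers, so some reads were divided between genes. Whether ENSG00000257767 was among those genes was not tested. ALDH3A1 (minus strand of chromosome 17, 19737984 to 19748943), an enzyme known from cornea and from many tumours, had 66.29 and 71.29 normalized counts in WT/HAQ, 35.46 and 34.73 in WT/-, and 55.83 and 70.06 in HAQ/-. Its log2 ratios of 0.10, -0.03 and 0.33 all had intervals that included 0.

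ALDH3A2 (plus strand of chromosome 17, 19648136 to 19685760), the fatty aldehyde dehydrogenase whose loss causes Sjögren-Larsson syndrome, had 864.4 normalized counts in the WT/HAQ control and 716.7 with cGAMP, 430.2 and 410.0 in WT/-, and 820.9 and 957.8 in HAQ/-. The cGAMP ratio was below 1 in WT/HAQ (log2 -0.27, -0.41 to -0.13) and above 1 in HAQ/- (0.22, 0.09 to 0.36), and in WT/- its interval included 0 (-0.07, -0.28 to 0.14). Both WT/- libraries lay below the 4 libraries of the other lines.

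The mean difference between lines was tested for the analysed members other than ALDH1A1 with edgeR's quasi-likelihood F test over all 15126 genes. The model held the line and the treatment, with 2 libraries per line and 2 residual degrees of freedom, so that its p-values measure departures from additive effects among these libraries. ALDH1A1 was left without a test, because its differing cGAMP libraries enter the line means and were used to choose the group. For the other 8 members the line means were not used in the choice, but the error of the test comes from the spread of their cGAMP ratios between lines, which were known when the group was chosen, so these p-values are not fully independent of it. Each edited line is 1 clone, so the STING1 allele, the clone and the culture cannot be told apart.

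ALDH3A2 was lower in WT/- than in both other lines. Its mean was 420.1 normalized counts in WT/-, 790.6 in WT/HAQ and 889.4 in HAQ/-, with no overlap between the WT/- libraries and the others. The log2 difference was -0.91 ± 0.139 (SE, edgeR adjusted p = 0.0275) from WT/HAQ and -1.08 ± 0.139 (edgeR adjusted p = 0.0109) from HAQ/-. Without the WT/- control library, the edgeR adjusted p was 0.251 and 0.129 for these contrasts, and without the WT/- cGAMP library it was 0.246 and 0.146. Leaving out either of these libraries left 0 of 15126 genes called by edgeR in each line contrast, with between 2068 and 3269 genes at an unadjusted p under 0.05. The contrast with WT/HAQ was also lost without the WT/HAQ control (edgeR adjusted p = 0.0966) or the WT/HAQ cGAMP library (0.0547), and with treatment left out of the model (0.0587). HAQ/- and WT/HAQ differed by 0.17 ± 0.135 (edgeR adjusted p = 0.534).

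ALDH7A1 was lower in WT/- than in HAQ/-, at means of 1900 and 2415 normalized counts, a log2 difference of -0.35 ± 0.0803 (edgeR adjusted p = 0.0416). The highest WT/- library, at 2037, was below the lowest HAQ/- library, at 2317, and the WT/HAQ libraries, at 2021 and 2232, overlapped the range of WT/-. This call was lost when any 1 of the 6 libraries was left out, with edgeR adjusted p from 0.0537 to 0.2495, with DESeq2 (adjusted p = 0.0802) and with treatment left out of the model (edgeR adjusted p = 0.157).

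Of these 8 members, 0 were higher and 1 was lower in WT/- than in WT/HAQ, where 4.99% of all genes were higher and 3.81% lower. Between WT/- and HAQ/-, 0 were higher and 2 lower in WT/-, against 11.1% and 7.94% of all genes. Between HAQ/- and WT/HAQ, 0 members were called by edgeR, against 0.377% of genes higher and 0.846% lower in HAQ/-. In that contrast 3 members had an unadjusted p under 0.05, as did 2831 of all 15126 genes, and DESeq2 called 0. ALDH3A1 also had its lowest values in both WT/- libraries, but its log2 difference of -0.96 ± 0.243 from WT/HAQ did not pass (edgeR adjusted p = 0.0731), nor did that of -0.83 ± 0.245 from HAQ/- (edgeR adjusted p = 0.0755).

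The HAQ/- over WT/HAQ log2 difference of ALDH1A3, at -0.90 ± 0.244, did not pass (edgeR adjusted p = 0.156). The WT/- over HAQ/- log2 difference of ALDH1B1 was -0.63 ± 0.380 and did not pass (edgeR adjusted p = 0.290). This value depended on which HAQ/- library was kept, at -1.29 without the HAQ/- control (edgeR adjusted p = 0.00182) and 0.10 without the HAQ/- cGAMP library (edgeR adjusted p = 0.7575). Its HAQ/- over WT/HAQ difference of 0.37 ± 0.380 (edgeR adjusted p = 0.639) was 1.04 (edgeR adjusted p = 0.00897) and -0.34 (edgeR adjusted p = 0.456) in the same fits. A fit with 1 HAQ/- library sets a treated or a control library alone against the other lines, so these values hold the cGAMP ratios described above. ALDH2, ALDH3B1 and ALDH9A1 had edgeR adjusted p of 0.0878 or more in each line contrast.

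**Figure D3:**
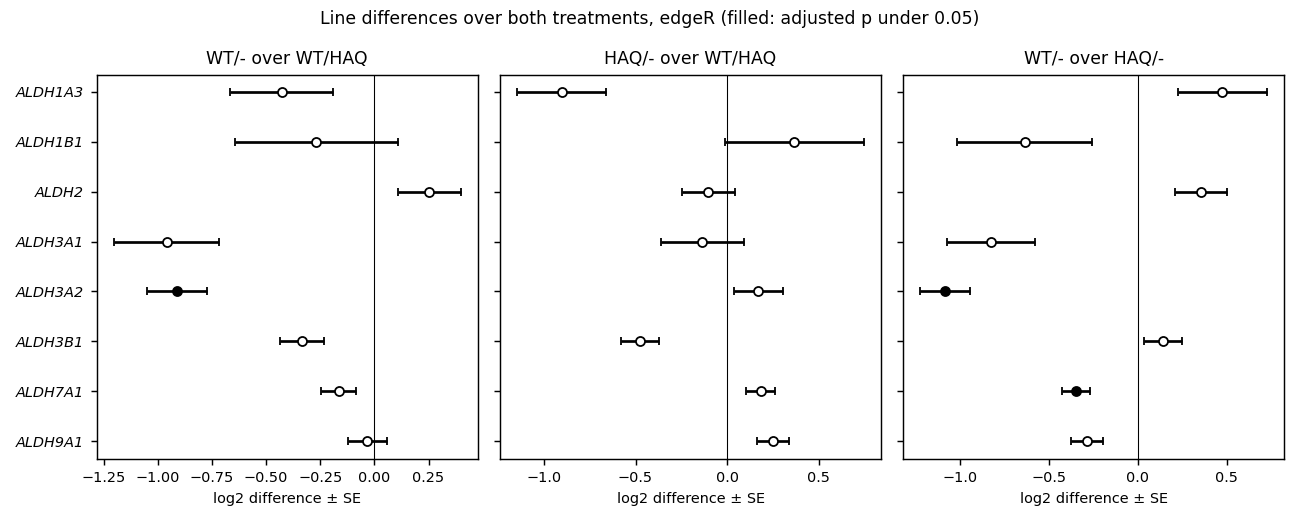
log2 difference between lines (x axis, a separate scale in each panel) for the 8 analysed aldehyde dehydrogenases other than ALDH1A1 (y axis), fitted with edgeR over the control and cGAMP libraries of each line; bars are standard errors and filled points have an adjusted p under 0.05. The filled points are ALDH3A2 at -0.91 and -1.08 and ALDH7A1 at -0.35, all lower in WT/-.

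The other 9 family genes were not in the group chosen by its cGAMP ratios, and 7 of them were analysed (ALDH1L1 and ALDH8A1 were not). None of the 7 was called by edgeR or by DESeq2 in any line contrast or for cGAMP, and 2 or 3 of them had an unadjusted p under 0.05 in each line contrast and 0 for cGAMP. Of all 15126 genes, 2831 to 5469 did so in the line contrasts and 3819 for cGAMP. ALDH18A1, which makes pyrroline carboxylate for proline synthesis, had 2514 and 2401 normalized counts in WT/HAQ, 2707 and 2770 in WT/-, and 2409 and 2522 in HAQ/-. Its highest library was 1.154 times the lowest. ALDH1L2, the mitochondrial formyltetrahydrofolate dehydrogenase, had 32.7 and 66.53 in WT/HAQ but 80.26 and 68.12 in WT/- and 67.17 and 59.11 in HAQ/-. Its average log2 fold across lines was 0.18 ± 0.306 (edgeR adjusted p = 0.767). ALDH3B2 had 22.98 and 20.91 normalized counts in WT/HAQ, 24.26 and 21.37 in WT/-, and 13.96 and 38.31 in HAQ/-, with an average log2 fold of 0.38 ± 0.420 (edgeR adjusted p = 0.632). ALDH16A1 averaged -0.07 ± 0.092 (edgeR adjusted p = 0.674). The mitochondrial enzymes ALDH4A1 of proline breakdown, ALDH5A1 of GABA breakdown and ALDH6A1 of valine breakdown averaged 0.04 ± 0.1375, 0.07 ± 0.108 and 0.05 ± 0.135, with edgeR adjusted p from 0.727 to 0.887.

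Genes that act beside these enzymes were taken as lists, and their response to cGAMP was tested across the lines with edgeR, with the line in the model. Over all genes, 2.27% were called higher and 0.959% lower with cGAMP. Of 22 genes that supply, bind or sense retinoids, 14 were analysed and 0 were called in either direction. In that list 5 had an unadjusted p under 0.05, as did 3819 of all 15126 genes, and DESeq2 called 2, RETSAT higher and RARA lower, of the 1355 genes it called in all. The median log2 fold of the list was -0.15, beside -0.0035 over all genes.

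RARA, the retinoic acid receptor alpha, had 1309 normalized counts in the WT/HAQ control and 329.8 with cGAMP, 1469 and 602.4 in WT/-, and 1048 and 649.1 in HAQ/-. Every treated library was below every control library, but the average log2 fold of -1.31 ± 0.245 did not pass (edgeR adjusted p = 0.0622). DHRS3, which reduces retinaldehyde back to retinol, had 100.8 and 40.87 in WT/HAQ, 37.33 and 21.37 in WT/-, and 27.04 and 22.99 in HAQ/-, an average of -0.84 ± 0.290 (edgeR adjusted p = 0.1585). RETSAT, a retinol saturase, averaged 0.47 ± 0.0936 (edgeR adjusted p = 0.0674).

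Of 18 genes of the alcohol dehydrogenase, aldo-keto reductase, carbonyl reductase and aldehyde oxidase groups, which also handle aldehydes and ketones, 12 were analysed, 1 was called higher and 0 lower, with a median of 0.09. The called gene was CBR3, a carbonyl reductase. It had 45.96 normalized counts in the WT/HAQ control and 106.5 with cGAMP, 48.53 and 118.9 in WT/-, and 50.6 and 91.95 in HAQ/-, so the treated libraries did not overlap the controls. Its average log2 fold was 1.12 ± 0.181 (edgeR adjusted p = 0.0463), and without the WT/HAQ or the WT/- line the edgeR adjusted p was 0.192 and 0.348, and with the line left out of the model 0.107. CBR1 (0.42 ± 0.0866, edgeR adjusted p = 0.0711) and XDH (0.55 ± 0.144, edgeR adjusted p = 0.0994) did not pass. In this list 4 had an unadjusted p under 0.05, all higher, and DESeq2 called CBR1 and CBR3 higher, beside the same 3819 and 1355 of all genes.

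Of 16 targets of NRF2, the transcription factor of the oxidative stress response, all 16 were analysed and 0 were called by edgeR, with a median of 0.006. An unadjusted p under 0.05 was found for 6 of them, beside 3819 of all 15126 genes, and DESeq2 called 2 of them, GCLM higher and OSGIN1 lower, beside 1355 of all genes. The subunits of glutamate-cysteine ligase differed in sign, with the catalytic subunit GCLC at -0.51 ± 0.151 (edgeR adjusted p = 0.120) and the modifier subunit GCLM at 0.43 ± 0.0886 (edgeR adjusted p = 0.0711). OSGIN1 averaged -0.83 ± 0.192 (edgeR adjusted p = 0.0816).

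Some genes of these lists that missed the threshold passed it under other settings. Without the HAQ/- line, edgeR called 2594 genes in all, among them RARA (adjusted p = 0.000414), DHRS3 (0.0496), RETSAT (0.00678), CBR1 (0.00840), GCLC (0.00319), GCLM (0.0286) and OSGIN1 (0.00543). With a mean count of 1 or more as the filter, edgeR called 1005 genes in all, among them RARA (adjusted p = 0.0302), RETSAT (0.0499) and CBR1 (0.0494). XDH passed in 0 of its 8 alternatives.

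Among the 12086 genes averaging at least 50 counts, those whose log2 normalized counts followed ALDH1A1 most closely over the 6 libraries were NADK2 (Pearson r = 0.991), ZNF776 (0.986), GTF2F1 (0.983), NMT2 (0.982) and CDC37L1 (0.979). The points share libraries and treatment and include the single ALDH1A1 count of the HAQ/- cGAMP library. The correlations are descriptions of 6 values. The changes were far smaller than that of ALDH1A1. CDC37L1 had 335.0 and 576.0 normalized counts in WT/HAQ, 347.2 and 653.1 in WT/-, and 286.1 and 233.2 in HAQ/-. NADK2 had log2 ratios of 0.32, 0.36 and -0.22.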

How the data were processed

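The deposited values are expected counts (estimated counts) per Ensembl gene that the authors made without normalization, and the submitters' processing notes name STAR, RSEM and GRCh38 (hg38). Versions, annotation and strandedness are not given in the sources used here. All 6 columns matched a sample label. Expected counts were rounded to whole counts, the 15126 genes averaging at least 10 counts were analysed, and libraries were scaled by TMM (factors 0.940 to 1.052). A cGAMP fold compares the libraries of 1 line, with counts under 3 set to 3 for folds, and counting intervals are Wilson intervals at 95%, which cover counting error only. Lines and treatment were tested with edgeR 4.0.16 (quasi-likelihood F test, line plus treatment, Benjamini-Hochberg adjustment) in R 4.3.3, after tests on simulated data. P-values measure only departures from additive line and treatment effects among these libraries. Positions are from GENCODE release 44 (GRCh38), which held 56434 of the 60498 gene identifiers. Motifs were matched on both strands of RefSeq promoters.

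The members and lists were chosen with earlier results of these data known. The text names the members, the other family genes, the called genes and the 3 largest average folds of each list, STING1 and ISG15, the cell markers, and the 5 genes most correlated with ALDH1A1. Neighbouring genes were named after their values were seen. Alternatives were DESeq2 1.42.0 (size factors or Wald test), total counts, other floors, filters and fold limits, the covariate left out, and each library or line left out.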

Additional observations from a re-analysis of the deposited data

Results flagged for a closer look

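ALDH1A1 stood out because its libraries moved in opposite directions in different lines. The log2 cGAMP ratio was 4.32 in WT/HAQ and 5.43 in WT/-, and -3.92 in HAQ/-. ALDH3A2 also had ratios of opposite sign, at log2 -0.27 in WT/HAQ and 0.22 in HAQ/-, but both changes were under the 1.5-fold limit. With 1 library per line and treatment, these differences were not tested. The HAQ/- value of ALDH1A1 rests on 19 counts in the control and 1 in the treated library, while ALDH3A2 had 410.0 normalized counts or more in every library.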

How the results depend on the processing

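No value changed direction past a threshold under the alternatives run. Of the log2 cGAMP folds of members, 107 values under alternatives stayed close to the reported ones and 1 did not, ALDH1A1 in HAQ/- with a floor of 10 counts (-0.60). The number of members lower in WT/HAQ was 1 at a fold of at least 2 and 4 at a fold of at least 1.2. In HAQ/-, a fold of at least 1.2 gave 1 higher and 4 lower. Shares of all genes are given at 1.5-fold only, so nothing is read from the member counts at these other limits. Genes called between WT/- and WT/HAQ were 247 with treatment left out of the model and 0 to 2649 with a library left out. Between HAQ/- and WT/HAQ they were 369 with a mean count of at least 1, 557 with the DESeq2 Wald test, 14 with treatment left out and 0 to 1317 with a library left out. Between WT/- and HAQ/- they were 710 with treatment left out and 0 to 3027 with a library left out. For cGAMP they were 1005 with a mean count of at least 1, 1355 with the DESeq2 Wald test, 61 with the line left out of the model and 0 to 2594 with a line left out. Counts of 0 came without either WT/- library or, for cGAMP, without the WT/- line (1888 genes at an unadjusted p under 0.05 by edgeR). A fit with a line reduced to 1 library assumes that the lone library varies like the others. Of the line differences of the 8 members tested, 247 values under alternatives kept their side of the threshold, 15 lost it and 2 gained it, both for ALDH1B1 without the HAQ/- control library. The cause was not tested. The control and cGAMP libraries of a line were paired by the line term in the cGAMP test, and the 61 genes above are the count without that pairing, against 489 with it.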

Other observations

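The protein-coding genes nearest to ALDH1A1 and ALDH1B1, 2 on each side, are named here after their values were seen. Distances are between the GENCODE gene spans. The ALDH1A1 span reaches upstream past the RefSeq start whose promoter is shown above, so that window lies inside the span. ANXA1, an annexin gene 71.4 kb from ALDH1A1, had 15430 and 12990 normalized counts in the WT/HAQ control and cGAMP libraries, 9777 and 9806 in WT/-, and 15010 and 13840 in HAQ/-. TMC1, at 62.4 kb, had 0 to 3 counts. ZFAND5, at 535.4 kb, had 4184 and 2097 normalized counts in WT/HAQ, 5882 and 3121 in WT/-, and 3426 and 2619 in HAQ/-. RORB, a nuclear receptor gene at 1416.9 kb, had 1 and 37 counts in WT/HAQ, 11 and 29 in WT/-, and 1 and 4 in HAQ/-. Near ALDH1B1, IGFBPL1, at 7.9 kb, had 15 and 7 counts in WT/HAQ, 1 and 2 in WT/-, and 6 and 7 in HAQ/-. ENSG00000255872, at 324.0 kb, had 0 counts in each library. SHB, an adaptor gene at 323.5 kb, had log2 cGAMP ratios of -1.49, -1.05 and -0.31 in the order WT/HAQ, WT/-, HAQ/-, and ANKRD18A, at 141.9 kb, had -0.80, -0.76 and -0.10.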
